A study of Mus musculus with 2 samples.

Results

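Aerocytes are the large, thin capillary endothelial cells of the lung alveolus, and 519 of the 2458 endothelial cells in a pair of sorted mouse lung libraries met the rule used for them here. A cell counted as endothelial when at least 3 of the 6 genes Pecam1, Cdh5, Cldn5, Egfl7, Ramp2 and Calcrl had at least 1 UMI (a unique molecular identifier, which marks 1 captured transcript). It counted as an aerocyte when at least 3 of the 6 genes Ednrb, Fibin, Tbx2, Chst1, Car4 and Sirpa were detected as well, with at most 1 of 5 venous genes and at most 1 of 5 arterial genes. All 22 genes of the rule are in the files. The rule found 446 aerocytes in the wild-type library (WT) and 73 in the knockout library (KO), among 2745 and 1326 barcodes that passed limits of 500 genes or more and no more than 10% mitochondrial UMIs. The deposited matrices hold 3482 and 2196 barcodes.

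The study compared lung endothelial cells of C57BL/6J mice aged 10 to 12 weeks modelling type 2 of hereditary hemorrhagic telangiectasia, in which small vessels form direct shunts between arteries and veins. WT and KO lungs were both digested with dispase for 1 hour and with DNase for 30 minutes, and cells were sorted as VE-cadherin+ and CD45-. Each genotype is 1 library of 10x Genomics chemistry (3' v3), so no difference has a replicate check and none was tested. The deleted gene, the driver of the deletion and the number of animals in a library are not given in the sources used here.

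In the alveolus, aerocytes lie against alveolar type 1 cells and form most of the surface for gas exchange, while general capillary cells, their neighbours in the same capillary mesh, include the cells that divide after injury. Aerocytes carry Ednrb, the endothelin receptor type B, and secrete apelin (Apln), whose receptor Aplnr is borne by general capillary cells. Telangiectasia of this type is known from ACVRL1, an endothelial receptor for circulating bone morphogenetic proteins (BMPs), which signals through SMAD transcription factors to genes such as Id1, Id3, Smad6, Smad7 and Tmem100.

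The promoters of 4 genes that the results turn on are printed first: Ednrb, Fibin and Car4 because all of them mark the cell type, and Apln because its level differed between the libraries. Each runs from 250 bases before to 50 bases after the RefSeq start on GRCm38.p6, on the strand of the gene. Capitals mark the cores searched for on both strands, GGTGTG of T-box factors, the family of Tbx2, and CCGGAA of ETS factors, which many endothelial genes use.
Ednrb, chr14:103843652-103843951, minus strand: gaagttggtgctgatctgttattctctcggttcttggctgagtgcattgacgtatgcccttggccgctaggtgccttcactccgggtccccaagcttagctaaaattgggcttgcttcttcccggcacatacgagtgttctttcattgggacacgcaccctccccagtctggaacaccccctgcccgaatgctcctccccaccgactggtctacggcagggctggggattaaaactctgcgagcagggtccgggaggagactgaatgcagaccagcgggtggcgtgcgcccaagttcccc
Fibin, chr2:110362944-110363243, minus strand: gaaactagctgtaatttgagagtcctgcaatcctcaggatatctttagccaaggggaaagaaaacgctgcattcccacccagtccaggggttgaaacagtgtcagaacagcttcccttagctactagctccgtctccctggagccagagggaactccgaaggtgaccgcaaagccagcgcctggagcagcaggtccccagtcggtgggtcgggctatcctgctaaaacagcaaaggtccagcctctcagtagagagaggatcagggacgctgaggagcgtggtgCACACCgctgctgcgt
Car4, chr11:84957504-84957803, plus strand: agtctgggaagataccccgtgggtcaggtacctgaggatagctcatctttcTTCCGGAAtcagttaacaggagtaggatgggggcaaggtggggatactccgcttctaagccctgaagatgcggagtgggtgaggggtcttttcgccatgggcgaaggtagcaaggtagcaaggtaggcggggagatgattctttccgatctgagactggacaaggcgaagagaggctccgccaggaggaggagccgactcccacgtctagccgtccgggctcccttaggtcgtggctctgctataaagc
Apln, chrX:48034804-48035103, minus strand: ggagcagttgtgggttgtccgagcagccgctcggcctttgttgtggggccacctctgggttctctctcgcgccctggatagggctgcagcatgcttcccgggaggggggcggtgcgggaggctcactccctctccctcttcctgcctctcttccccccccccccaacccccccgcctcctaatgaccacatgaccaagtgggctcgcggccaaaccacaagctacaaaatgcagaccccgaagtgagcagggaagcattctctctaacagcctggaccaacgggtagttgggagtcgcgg
Fibin held 1 T-box core and Car4 an ETS core read from both strands, where the matches overlap. Among 32851 promoters of the same length, 19.0% held the T-box core and 14.9% the ETS core. The windows of Ednrb and Apln held neither set of letters. Of the 8 genes looked up, 6 were in the promoter table, and those of Chst1 and Prx held neither core. A match is a description of letters and not of binding.

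The 6 aerocyte genes chose the cells, so their counts and levels here describe the rule and do not check the label. Endothelial cells fell into separate ranges by the number of aerocyte genes detected: 38.0% of WT and 49.4% of KO endothelial cells had none, 12.3% and 7.63% had all 6, and few had 3 or 4. Of the aerocytes themselves, 225 WT and 44 KO cells had all 6 genes, and 44 WT and 8 KO cells had the 3 that were needed. Cells just inside the threshold, with 3 genes, had 278 CPM of Ednrb in WT and 66.6 CPM in KO (CPM, UMIs per 1000000 UMIs of the cells summed). Cells just outside, with 2 genes, numbered 146 and 52 and had 51.3 and 81.3 CPM. Plvap, a diaphragm protein that marks general capillary cells, was at 627 CPM (WT) and 666 CPM (KO) just inside, and at 821 and 686 CPM just outside, so cells at the edge of the rule carried genes of both capillary types.

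**Figure D1:**
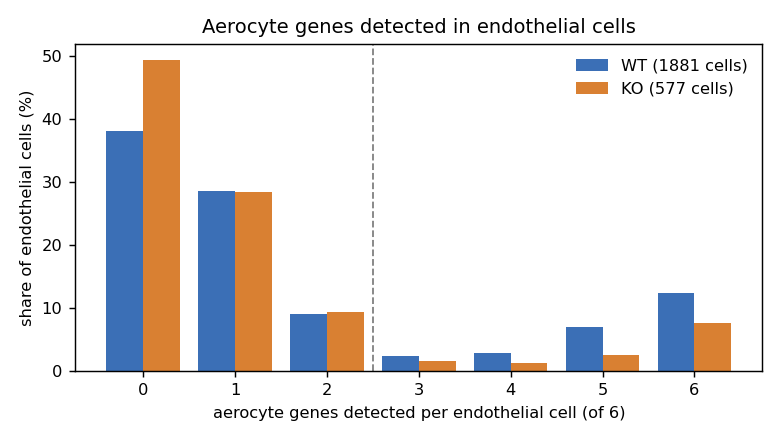
Share of endothelial cells (vertical axis, percent) by the number of the 6 aerocyte genes detected per cell (horizontal axis), for 1881 WT and 577 KO cells before the arterial and venous limits. The dashed line is the threshold of the rule; both libraries have few cells at 3 and 4 genes and more at 6.

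Some cells met the rule while carrying markers of another cell type. With limits set after the data had been seen, 26 WT aerocytes and 1 KO aerocyte had markers of alveolar type 2 (AT2), fibroblast, smooth muscle or leukocyte identity. They held 10.7% of the WT and 3.76% of the KO aerocyte UMIs. In WT, 17 of the 26 carried AT2 markers at 2% or more of their UMIs and 9 carried fibroblast genes, while the KO cell carried fibroblast genes. These are called mixed cells below, and levels are given with and without them. Without them there were 420 WT and 72 KO aerocytes, whose median depth was 5547 and 6157.5 UMIs, and the leukocyte genes Ptprc, Cd52, Laptm5, Tyrobp, Cd3e and Cd79a were at 0 in both. The 10 AT2 genes still summed to 3861 CPM in WT and 1902 CPM in KO. The libraries share 12 barcodes, none of them an aerocyte in both.

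Aerocytes made up 23.7% of WT endothelial cells (446 of 1881; 95% exact Clopper-Pearson interval 21.8% to 25.7%) and 12.7% of KO endothelial cells (73 of 577; 10.0% to 15.6%). General capillary cells, taken as cells with at least 3 of Gpihbp1, Plvap, Aplnr, Kit, Cd93 and Wfdc1, at most 1 aerocyte gene and the same arterial and venous limits, made up 44.8% and 53.9%. The intervals of the aerocyte shares do not overlap, but they cover counting error within 1 library each. How the digestion and the sort recovered each cell type in the libraries was not tested.

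The genes of the rule are given as a description, since choosing cells by them partly fixes their level in both libraries. Ednrb stood at 1936 CPM in WT (exact Poisson interval 1884 to 1990) and 1937 CPM in KO (1814 to 2066). Car4, a carbonic anhydrase of the capillary surface, stood at 2776 and 2732 CPM, and Fibin at 1645 and 1879 CPM. Tbx2, a T-box transcription factor, stood at 855 and 795 CPM, and the sulfotransferase Chst1 at 303 and 271 CPM. General capillary cells had 8.76 CPM of Ednrb in WT and 12.9 CPM in KO, which shows how far the rule parts the cells. In aerocytes without mixed cells, thinned to 1500 UMIs, Ednrb was detected in 87.7% of WT and 86.1% of KO cells (96.4% and 93.1% unthinned). The same share was 0.765% of WT and 0% of KO AT2-like cells, a type that should lack the gene, and 0 of 442 cells allows a share of up to 0.679% (3 counts of the total). Those AT2-like cells had medians of 16773 and 19640 UMIs before thinning.

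Genes known from aerocytes but not used by the rule stood high too. Prx, a scaffold protein that the label lists, had 731 CPM in WT aerocytes against 115 CPM in WT general capillary cells, and 850 against 165 CPM in KO. Igfbp7, a secreted binding protein, had 6709 CPM in WT and 8174 CPM in KO aerocytes, against 419 and 548 CPM in general capillary cells. Emp2, a membrane protein of thin alveolar cells, had 4075 and 3317 CPM, and Kdr, the main VEGF receptor, 2478 and 2244 CPM. Rprml was lower in KO aerocytes (163 CPM) than in WT aerocytes (291 CPM). Hpgd, which breaks down prostaglandins, did not part the types: 2512 and 2601 CPM in aerocytes stood against 3004 and 2397 CPM in general capillary cells. All 10 general capillary genes were at least 2-fold lower in aerocytes of both libraries, a description only, since 6 of them chose the general capillary cells. The other 4, the semaphorin Sema3c, the phosphatase Ptprb, the angiopoietin receptor Tek and the lipase Lpl, did not enter either rule.

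**Figure D2:**
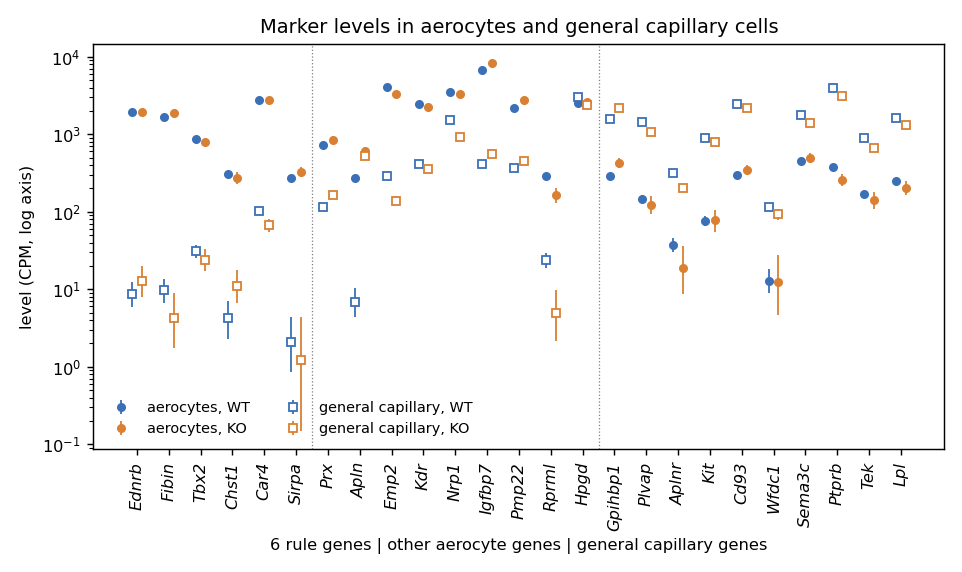
Levels in CPM (vertical log axis) of the 6 rule genes, 9 other aerocyte genes and 10 general capillary genes, with exact Poisson intervals as bars; filled circles are aerocytes and open squares general capillary cells, blue for WT and orange for KO. Apln is higher and Rprml lower in KO than in WT aerocytes, and Apln of KO general capillary cells (520 CPM) lies near that of KO aerocytes (612 CPM).

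A wider description set aerocytes beside general capillary cells within each library, at 2-fold with intervals apart. In both libraries 225 genes were higher in aerocytes (6.04% of the 3723 with at least 50 CPM there) and 220 were lower (5.85% of 3760). The cells were chosen by their genes, so these counts describe the rule's outcome. The largest ratios, by the weaker library, included Rbfox3, a splicing factor known from neurons, at 87.3 CPM in aerocytes of WT and 117 CPM in those of KO against 1.51 and 1.23 CPM. Egflam, a matrix protein, stood at 143 and 186 CPM against 2.72 and 1.23 CPM. Itgb5, an integrin chain, stood at 275 and 321 CPM against 6.95 and 3.70 CPM. Ccdc184, Slc5a12, Frrs1, Cdkn2b, Pde8b, Tnfrsf11b, Tmeff2 and Adamtsl5 were also among the 12 highest.

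Esm1 and Sema3g led the genes that aerocytes had least of. Esm1, a secreted proteoglycan, stood at 21.2 CPM in aerocytes of WT and 8.35 CPM in those of KO against 346 and 225 CPM in general capillary cells. Ptprb, the endothelial phosphatase that restrains Tie receptors, stood at 374 and 257 CPM against 3912 and 3072 CPM. The ligand endothelin 1 (Edn1) stood at 37.6 and 45.9 CPM against 391 and 600 CPM, the opposite side from its receptor Ednrb. Mctp1, Hmcn1, Gja4 and Kit, the last of which was used to pick the general capillary cells, completed the 8 lowest. By list, 7 of 24 interferon response genes were at least 2-fold lower and none higher in WT aerocytes, where 5.96% of 8762 genes with a mean of 10 CPM were lower and 5.58% higher. In KO it was 8 of 23, where 5.99% of 8483 were lower and 5.29% higher. Of the Notch pathway, 5 of 12 genes were lower in WT, among them Jag1, Notch1 and Hey1, and 4 of 12 in KO.

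KO and WT aerocytes were then compared as libraries, which differ in genotype and, as given further on, in sex-linked transcripts. Acvrl1, the gene by which this disease type is known, stood at 1697 CPM in aerocytes of WT and 1609 CPM in those of KO, or at 1863 and 1670 CPM without mixed cells (ratio 0.896, exact conditional binomial interval 0.829 to 0.968). The labels do not say which gene or exons the deletion removes, and a 3' tag outside a deleted stretch would still be counted, so this level does not check the label. Over all members, 117 genes were at least 1.5-fold higher in KO with intervals apart (3.14% of the 3723 with a mean of 50 CPM) and 109 lower (2.93%). Scaling by median ratios gave 85 higher and 133 lower. Without mixed cells 85 genes were higher (2.28% of 3734) and 86 lower (2.3%), of which 78 and 70 were also called over all members.

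**Figure D3:**
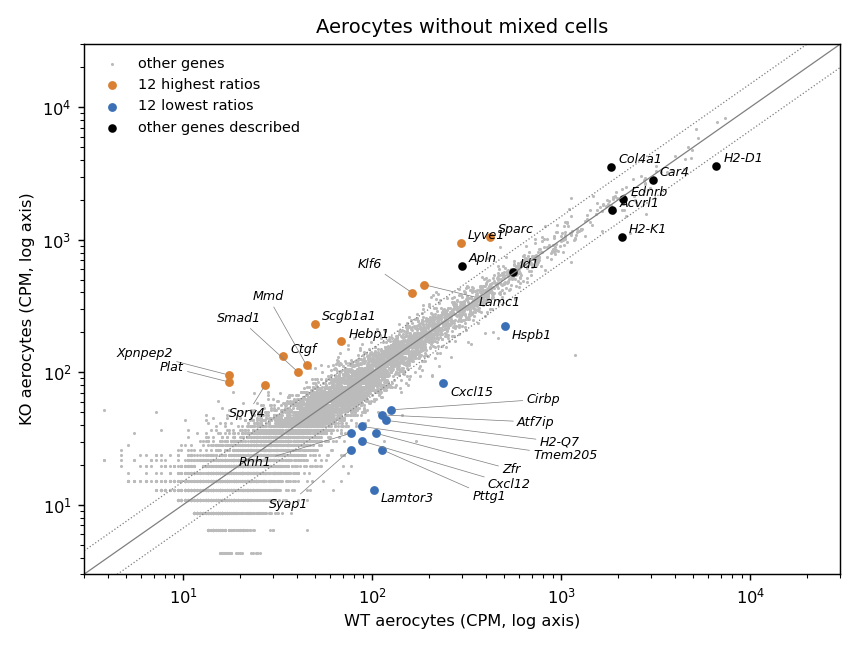
Level of each gene in KO aerocytes (vertical log axis, CPM) against WT aerocytes (horizontal log axis, CPM), both without mixed cells; the solid line is equality and the dotted lines are 1.5-fold. Orange and blue mark the 12 highest and 12 lowest ratios, black other genes described; Acvrl1, Ednrb, Car4 and Id1 lie within the dotted lines, and Col4a1, H2-D1 and H2-K1 outside.

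Single cells held several of the largest differences over all members. Mgp, an inhibitor of calcification, stood at 1482 CPM in KO and 128 CPM in WT, but 693 of the 710 KO UMIs lay in 1 cell, the mixed cell with fibroblast genes. Without mixed cells Mgp was at 36.9 CPM in KO and 26.3 CPM in WT. Apoe, C3 and Gsn had the same form, with 187, 59 and 533 UMIs in their highest KO cell. On the lower side, Igfbp5 stood at 150 CPM (WT) and 2.09 CPM (KO) over all members, with 99.2% of the WT UMIs in 5 cells, and Fbn1 with 95.2%. S100g, Chil1, Wfdc2, Lcn2, Cxcl15, Fabp5, Cd74, Dram1 and Hc were lower in KO over all members, with 45.3% to 63.2% of their WT UMIs in 5 cells. The 10 AT2 genes moved with them, from 17506 CPM summed in WT to 1868 CPM in KO, and their part in these differences was not tested. Igfbp5, S100g, Chil1, Wfdc2, Lcn2, Fabp5 and Cd74 passed the mean of 50 CPM only through WT. Of the 109 lower genes, 38 (34.9%) were at least 2-fold higher in WT barcodes outside the endothelium than in WT aerocytes, against 13 of the 117 higher genes (11.1%) and 211 of all 3723 tested (5.67%). Read from the KO barcodes, the counts were 56 (51.4%), 4 (3.42%) and 226 (6.07%). The rest of the comparison of aerocytes is therefore given without mixed cells, a choice made after these values were seen. CPM levels of general capillary cells set beside them are over all such cells, mixed ones included.

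The 12 highest ratios without mixed cells were led by Xpnpep2 and Plat. Xpnpep2, a membrane aminopeptidase, stood at 95.4 CPM in KO (69.3 to 128) and 17.4 CPM in WT (12.5 to 23.6), with 27 of the 44 KO UMIs in 2 cells. Plat, the tissue plasminogen activator, stood at 84.6 CPM in KO and 17.4 CPM in WT, and in general capillary cells at 179 CPM in KO and 49.2 CPM in WT. Both passed the mean of 50 CPM in aerocytes only through KO, and Xpnpep2 was not called in KO cells with Y-linked transcripts, the larger set described further on. Ctgf, a matricellular protein, stood at 132 CPM in KO and 34.0 CPM in WT. Sparc, a collagen-binding matrix protein, stood at 1054 and 422 CPM. Spry4, which restrains growth factor signalling, stood at 80.2 and 27.2 CPM. Klf6, a zinc finger factor of the early response, stood at 397 and 163 CPM, and Smad1, a transducer of BMP receptors, at 99.8 and 40.8 CPM. Hebp1 was at 171 and 68.8 CPM, Mmd at 113 and 45.0 CPM. Lamc1, a laminin chain, was at 458 CPM in KO and 189 CPM in WT. Scgb1a1, a secreted protein of club cells, had 232 CPM in KO and 49.7 CPM in WT aerocytes, but 71.0% of the KO UMIs lay in 5 cells and KO AT2-like cells had 5690 CPM against 457 CPM in WT. The part of free RNA in its level was not tested. Ctgf, Spry4, Smad1, Mmd and Scgb1a1, each below 50 CPM in WT, also passed the mean of 50 CPM only through KO. Smad1 was not called in KO cells with Y-linked transcripts.

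Among the 12 lowest ratios, Lamtor3, a scaffold of the lysosomal Ragulator complex, stood at 13.0 CPM in KO (4.78 to 28.3) and 102 CPM in WT (89.4 to 116). It was lower in other cells of the KO library as well: 21.6 against 74.0 CPM in general capillary cells and 7.88 against 38.3 CPM in AT2-like cells. Pttg1, the securin of sister chromatids, showed the same in aerocytes (26.0 and 113 CPM), general capillary cells (25.3 and 78.8 CPM) and AT2-like cells (11.8 and 38.9 CPM). Zfr, an RNA-binding protein, stood at 34.7 CPM in KO and 105 CPM in WT aerocytes, with 97.9 and 110 CPM in general capillary cells. Cirbp, the cold-inducible RNA-binding protein, stood at 52.1 and 126 CPM in aerocytes and at 105 and 109 CPM in general capillary cells. The difference between the cell types in these ratios was not tested. Hspb1, a small heat shock protein, stood at 223 and 503 CPM in aerocytes and 57.9 and 134 CPM in general capillary cells. Cxcl15, a chemokine of lung epithelium, stood at 82.4 and 237 CPM, and AT2 genes moved with it: 7 of 10 were lower in KO aerocytes, none higher. Syap1, Atf7ip, Tmem205 and Rnh1 were the others. H2-Q7 belongs to a family of near-identical genes, and its 43.4 and 118 CPM are uncertain. Lamtor3, Pttg1, Zfr and H2-Q7, each below 50 CPM in KO aerocytes, passed the mean of 50 CPM only through WT.

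Cxcl12, a chemokine, stood at 30.4 CPM in KO and 87.9 CPM in WT, and over all members 56 of the 446 WT cells held a UMI of it, with 66.8% of the UMIs in 5 cells. It passed the mean of 50 CPM only through WT. It was abundant in WT general capillary cells, at 1037 CPM against 405 CPM in KO. When cells with 3 or more general capillary genes were left out too, Cxcl12 was at 5.55 CPM in KO and 16.0 CPM in WT, with overlapping intervals.

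Lists of genes were read against all genes whose mean reached 10 CPM, of which 154 were higher (1.84% of 8374) and 155 lower (1.85%), with a median log2 ratio of -0.03. Basement membrane and matrix genes had 7 of 16 higher and none lower, with a median log2 ratio of 0.78. The collagen IV chains Col4a1 and Col4a2, the network of the basement membrane, stood at 3555 and 2063 CPM in KO and at 1835 and 1124 CPM in WT. The others were Sparc, Lamc1, Bgn, Lama4 and Hspg2, the last a proteoglycan with 19.5 CPM in KO. Lama4 and Hspg2, both at 4.67 CPM in WT, passed the mean of 10 CPM only through KO. Hspg2 had 0 UMIs in the KO cells with Y-linked transcripts, and Bgn was not called in KO cells with Y-linked transcripts or in those with Xist alone. YAP and CCN responsive genes had 3 of 9 higher, Ctgf, Cyr61 and Nuak2, with a median of 0.10. Cyr61 stood at 71.6 CPM in KO and 18.3 CPM in WT, but at 12.3 CPM, below WT, in KO cells with Y-linked transcripts.

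Antigen presentation genes had none of 13 higher and 6 lower, with a median of -0.84. The class I heavy chain H2-D1 stood at 3602 CPM in KO and 6597 CPM in WT, H2-K1 at 1054 and 2089 CPM, and their light chain B2m at 1566 and 2801 CPM. H2-Q4, H2-Q6 and H2-Q7 were the other members, from a family in which reads of near-identical genes cannot be assigned with certainty. Of the 22 interferon response genes, Ifi203 and Ifi204 were lower and none higher; Ifi204 had 0 UMIs in KO, at a floor of 3 UMIs there (6.51 CPM), against 62.9 CPM in WT, so it was at least 9.66-fold lower. In general capillary cells Ifi204 stood at 1.23 and 204 CPM. Both are of a family of similar copies, and their values are uncertain. Ifi204 passed the mean of 10 CPM only through WT. Heat shock chaperones had 1 of 12 higher, Hsp90aa1, and 3 lower, Hspb1 and the near-identical pair Hspa1a and Hspa1b, with a median of 0.03.

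The BMP-SMAD targets had none of 9 higher and none lower over KO aerocytes of either kind without mixed cells, with a median of -0.17. With mixed cells kept, Id2 was lower in KO, at a log2 ratio of -0.83 with intervals apart. Id1 stood at 570 CPM in KO (504 to 644) and 555 CPM in WT (526 to 586), and Smad6 at 351 and 396 CPM. Tmem100, a small membrane protein of lung endothelium, stood at 2635 and 2763 CPM. Of 17 components of the TGF-beta and BMP pathway, Smad1 and Tgfb2 were higher and none was lower. Tgfb2 rested on 17 UMIs in KO and 4 in WT, and passed the mean of 10 CPM only through KO. Smad1 was not called in KO cells with Y-linked transcripts. It stood there at 61.4 CPM (37.5 to 94.9), against 40.8 CPM in WT (33.0 to 49.8). Endothelial junctions (15 tested), VEGF and angiopoietin signalling (10), and caveolae, carbonic anhydrase and water transport (13) had no member called either way. The other lists each had at most 1 member called in a direction, apart from endothelin, apelin and adrenomedullin signalling.

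In that list Apln and the natriuretic peptide clearance receptor Npr3 were the 2 of 10 called, both higher. Apln stood at 635 CPM in KO aerocytes (565 to 713) and 299 CPM in WT aerocytes (277 to 322), a ratio of 2.13 (1.85 to 2.44). Thinned to 1500 UMIs, 56.9% of KO aerocytes (44.7% to 68.6%) and 28.1% of WT aerocytes (23.8% to 32.7%) had an Apln UMI (73.6% and 58.6% unthinned), against 0.452% and 0.765% of AT2-like cells. In general capillary cells Apln stood at 520 CPM in KO and 6.95 CPM in WT. Without mixed cells and thinned likewise, 22.3% of KO general capillary cells (17.7% to 27.5%) and 1.04% of WT ones had an Apln UMI. Over all members, mixed cells included, aerocytes had 612 CPM in KO, 1.18-fold of the general capillary level, and 273 CPM in WT, 39.3-fold of it. Its receptor Aplnr stood at 19.5 CPM in KO and 37.8 CPM in WT aerocytes, with overlapping intervals, and at 204 and 319 CPM in general capillary cells. Apln (chrX:48025146-48034853, minus strand) and Xpnpep2 (chrX:48108725-48136981, plus strand), both protein-coding, lie on the X chromosome of mm10, by GENCODE M21. Npr3 rested on cells of both types: without cells that had 3 or more general capillary genes it had 1 UMI in KO.

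Sex-linked transcripts divided the KO aerocytes. Of the WT aerocytes 423 had Xist without Y-linked transcripts (Ddx3y, Uty, Kdm5d and Eif2s3y) and none the reverse. Of the KO aerocytes 8 had Xist alone, 50 had Y-linked transcripts alone, 1 had both and 14 neither. Among typed KO cells, Xist alone made up 13.8% of aerocytes (8 of 58; 6.15% to 25.4%), 24.1% of general capillary cells and 21.5% of all endothelial cells. The KO library thus holds cells of both kinds and the WT library of 1 kind, so over all KO aerocytes, and over those with Y-linked transcripts, genotype and sex cannot be told apart. The sets were compared with WT separately, the Xist set with WT cells that had Xist alone. The comparison of the Xist set is still 1 library against 1, so genotype cannot be told apart from library or animal there.

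In the 50 KO cells with Y-linked transcripts, 67 genes were higher (1.78% of the 3772 with at least 50 CPM in WT) and 106 lower (2.81%). Their BMP-SMAD targets had none of 7 called, with a median log2 ratio of -0.01, and Id1 stood at 626 CPM. Neither Id1 nor Id3 had a UMI in 6 of the 50 cells (12%) and in 20 of the 420 WT cells (4.76%). The median depths were 6403 and 5547 UMIs. Matrix genes had 5 of 8 higher: Col4a1 at 2822 CPM, Col4a2 at 1757 CPM, Sparc at 808 CPM, Lamb2 and Lamc1. The same 6 antigen presentation genes were lower as over all KO cells, of 12 tested. Apln stood at 611 CPM. The higher matrix genes and lower class I genes were thus also measured in this set.

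The 8 KO aerocytes with Xist alone stood apart. They held 47578 UMIs, so 3 UMIs are 63.1 CPM, and the median depth was 5892 UMIs. Their median mitochondrial share was 4.58%, against 2.91% in WT, and its part in what follows was not tested. Against WT cells with Xist alone, 190 genes were higher (5.06% of the 3758 with at least 50 CPM in WT) and 170 lower (4.52%), with a median log2 ratio of -0.11. With the level taken as the mean of both sets, 289 (7.84%) and 164 (4.45%) were called, and 82 (2.19%) and 84 (2.25%) in the cells with Y-linked transcripts. A mean admits genes through the set where they are high, so these counts are not compared. The limit on the WT level, used for both sets, admits lower genes through WT. Genes below 50 CPM in WT could not be called higher, so higher and lower counts are not compared either. WT levels given beside the 8 cells are of all 420 WT cells unless stated. Of 7 BMP-SMAD targets 5 were lower and none higher, with a median of -1.91. Id1 had 1, 2, 0, 0, 0, 0, 1 and 2 UMIs in the 8 cells, or 126 CPM (46.3 to 274), against a median of 2 and up to 23 UMIs per WT cell, or 555 CPM. Id3 had no UMI in 6 cells and 2 and 11 UMIs in the other two, or 273 CPM against 1025 CPM in WT. Smad7 had 1 UMI in 2 of the cells and none in the rest, and Smad6 2 UMIs in 2 cells. Tmem100 stood at 904 CPM against 2763 CPM in WT, and 2 of 8 components were lower: Acvrl1 at 841 CPM against 1863 CPM in WT, and the BMP receptor Bmpr2 at 652 CPM against 1870 CPM.

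**Figure D4:**
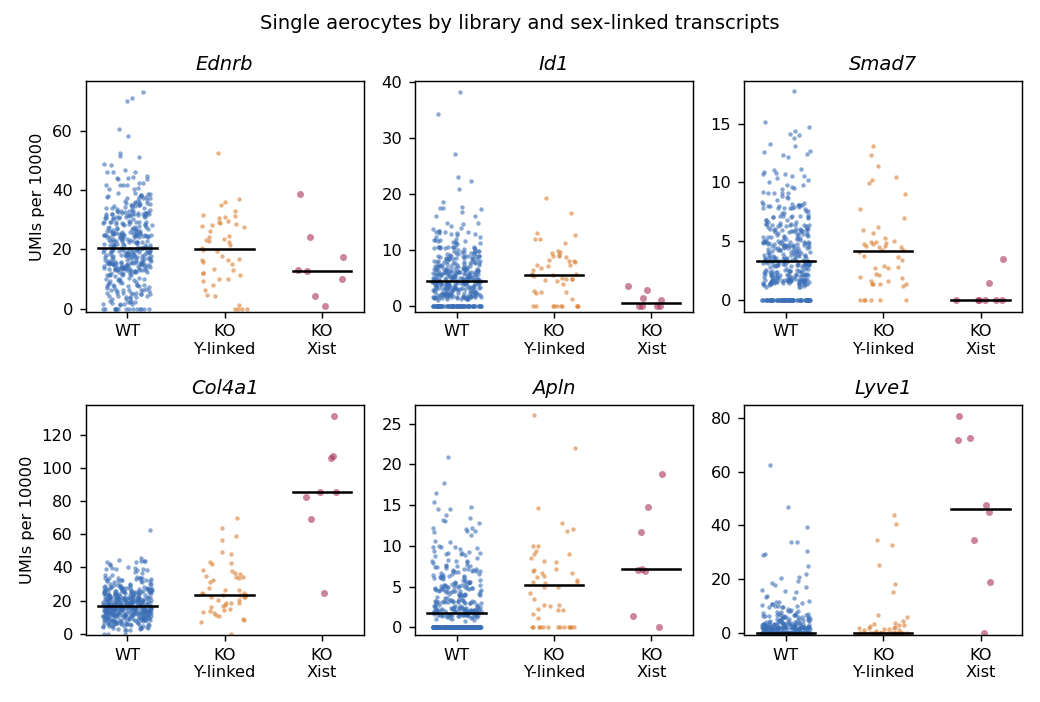
UMIs per 10000 UMIs (vertical axes) of 6 genes in each aerocyte without mixed cells: 420 WT cells, 50 KO cells with Y-linked transcripts alone and 8 KO cells with Xist alone; horizontal bars are medians. The 8 cells lie low for Id1 and Smad7 and high for Col4a1, and 7 of them hold Lyve1.

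Matrix genes ran the other way in these cells. Col4a1 had 59, 59, 52, 31, 33, 75, 65 and 17 UMIs in the 8 cells, or 8218 CPM, against a median of 9 and up to 47 UMIs per WT cell, or 1835 CPM. Every one of the 8 was above the WT median in UMIs, and 5 were above the highest WT cell. Of 8 matrix genes 6 were higher and none lower, with a median log2 ratio of 2.07: Col4a1, Col4a2, Lamc1, Nid1, Sparc and Sparcl1. In Sparc 91 of the 121 UMIs lay in 1 cell. Tinagl1, a basement membrane protein, stood at 694 CPM against 46.7 CPM in WT, and 5 of the cells held it. Plat and Xpnpep2 stood at 357 and 483 CPM, each in 4 of the cells, where the KO cells with Y-linked transcripts had 49.1 and 24.6 CPM. The same 1 cell held many of the UMIs of Plat, Xpnpep2 and Tinagl1: 11 of 17, 15 of 23 and 16 of 33.

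Of the 9 aerocyte genes that the rule did not use, 5 were lower in the 8 cells, Emp2, Hpgd, Kdr, Nrp1 and Rprml, and Apln and Igfbp7 were higher. Prx stood at 799 CPM against 806 CPM, but 19 of its 38 UMIs lay in 1 cell, and the median over cells was 4.32 per 10000 UMIs against 7.10 in WT. Of the genes of the rule, given as a description, Fibin stood at 631 CPM against 1800 CPM in WT, Tbx2 at 399 against 929 CPM, and Ednrb at 1303 against 2131 CPM. Kdr stood at 1009 CPM against 2729 CPM in WT, while Apln stood at 925 CPM and Igfbp7 at 11224 CPM against 7308 CPM. Dpp4, a surface peptidase, had 0 UMIs against 248 CPM in WT cells with Xist alone, where the floor of 3 UMIs in the 8 cells is 63.1 CPM, so it was at least 3.93-fold lower. Synm, Plxna1, Abi3bp, Scn3b and Syne1 had 0 or 1 UMI, against 222 to 338 CPM in WT cells with Xist alone. Like Dpp4, they passed the mean of 100 CPM used for these ranks only through WT. Tgfbi, Trp53i11, P4ha2, Clca3a1, Fscn1 and Ackr3 were among the highest ratios at a mean of 100 CPM, which they passed only through the 8 cells, since WT cells with Xist alone had 2.61 to 28.7 CPM of them. Of the 22 Trp53i11 UMIs 18 lay in 1 cell, as did 64 of the 70 Scgb1a1 UMIs. It was the same cell for both, and it also held 91 of the 121 Sparc UMIs. That cell had 1 UMI each of Ednrb and Tbx2, none of Car4, Fibin and Lyve1, 20 of Gpihbp1 and 9 of Plvap. The set was not compared without this cell alone.

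2 of the 8 cells carried 3 or more general capillary genes. Without them and without such WT cells, 170 genes were higher (4.51% of 3770) and 133 lower (3.53%). BMP-SMAD targets were then lower in 5 of 6, with Id1 at 96.2 against 529 CPM and Id3 at 0 UMIs, or at least 10.4-fold lower against the floor of 3 UMIs. No antigen presentation gene of 12 was called there, where 3 of 12 were lower over the 8 cells. Matrix genes were higher in 5 of 7, with Col4a1 at 9908 against 1855 CPM. The 2 cells left out held all 13 Id3 UMIs of the set, so its 0 UMIs follow from the cells chosen. 1 of these 2 cells had 11 UMIs of Id3 and 21 of Tmem100, above the medians of 5 and 14 UMIs per WT cell. It had no UMI of Smad7, against a WT median of 2, and its 17 UMIs of Col4a1 were the lowest count of the 8 cells. Apart from Id3, the low targets and high matrix genes were measured also in cells with at most 2 general capillary genes. Car4, Fibin and Tbx2 remained lower there, and Ednrb was at 1731 against 2363 CPM, with a ratio of 0.733 (0.549 to 0.958) that missed the fold.

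**Figure D5:**
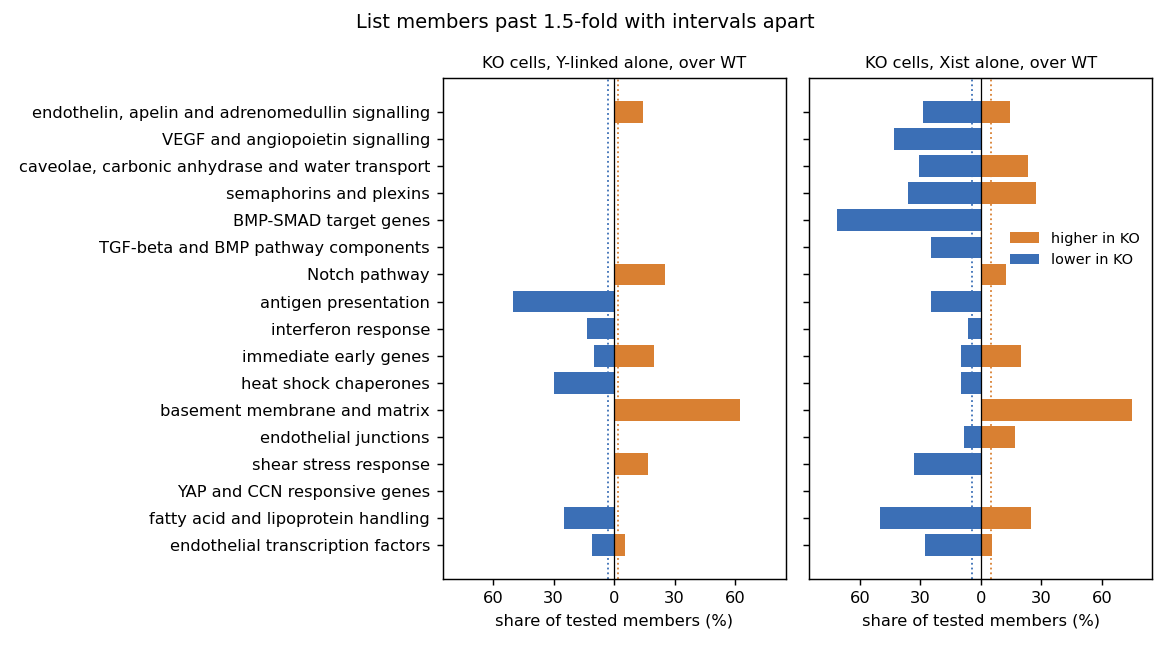
Share of the tested members of 17 gene lists (horizontal axis, percent) at least 1.5-fold higher (orange, right) or lower (blue, left) than WT, with intervals apart, for KO aerocytes with Y-linked transcripts alone and with Xist alone; tested members had at least 50 CPM in WT, and dotted lines are the shares over all genes tested. Matrix genes are higher in both panels, antigen presentation genes lower in both, and BMP-SMAD targets lower in the Xist panel.

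Lyve1, a hyaluronan receptor best known from lymphatic vessels, stood at 950 CPM in KO (863 to 1043) and 295 CPM in WT (273 to 317) over aerocytes without mixed cells, and was high in the same 8 cells. It had 56, 25, 21, 21, 19, 41, 0 and 13 UMIs in the 8 cells, or 4120 CPM. In WT 239 of 420 cells had 0 UMIs, and KO cells with Y-linked transcripts 510 CPM. At least 3 UMIs were found in 7 of the 8 cells, in 71 of the 420 WT cells (16.9%) and in 9 of the 50 cells (18.0%). In the 6 cells with at most 2 general capillary genes Lyve1 stood at 5868 CPM, against 151 CPM in such WT cells with Xist alone. The defining lymphatic genes were at or near 0: Prox1, the lymphatic master factor, had 0 UMIs in WT aerocytes without mixed cells and 5 in KO ones, 2 of them in 1 of the 8 cells, and Mmrn1 had 2 UMIs in WT and 1 in KO. General capillary cells had 1359 CPM of Lyve1 in WT and 2637 CPM in KO.

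In WT aerocytes Lyve1 went with general capillary genes. Of the 71 WT cells with at least 3 Lyve1 UMIs, 40 (56.3%) had 3 or more general capillary genes, against 11 of the 239 cells without Lyve1 (4.60%). Plvap stood at 505 CPM in the 71 cells and 34.4 CPM in the 239, Ptprb at 1240 and 119 CPM, and Ednrb at 1434 and 2376 CPM. Apln, at 304 and 298 CPM, and Id1, at 609 and 552 CPM, were nearly level. Of the 7 KO cells with Xist alone and at least 3 Lyve1 UMIs, 1 had 3 or more general capillary genes. Median UMIs were 6496 in the 71 cells and 5179 in the 239, and the part of droplets with more than 1 cell was not tested.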

How the data were processed

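The deposited matrices hold raw UMI counts of 27998 genes per barcode, which the authors made with Cell Ranger 3.0.1; the submitters' processing notes also name mm10, with totals of 25667220 UMIs in WT and 17864581 in KO. Each group is 1 library, so intervals (exact Poisson for CPM, exact conditional binomial for ratios, exact Clopper-Pearson for shares, all 95%) cover counting error only and no p-value was computed. Barcodes needed 500 genes or more and no more than 10% mitochondrial UMIs. UMIs were summed over the aerocytes of a library and given as CPM. A gene was called at 1.5-fold between libraries, or 2-fold between cell types, with intervals apart and a mean of at least 50 CPM, or 10 CPM for lists. Whether the authors removed doublets is not given in the sources used, and no cell was removed as a doublet in the values reported. Scrublet (scanpy 1.11.5), run as an alternative, marked 37 WT and 12 KO barcodes. Of the aerocytes it marked 20 in WT, 6 of them mixed cells and 14 not, and 0 in KO. AT2-like cells were those with at least 4 of 6 AT2 genes and at most 1 endothelial gene. Python 3.11.15, numpy 2.4.6, scipy 1.17.1 and pandas 2.3.3 were used. The comparison was run on simulated Poisson counts, the model of the intervals, without variation between cells. That run cannot tell how often single cells lead to a call. Gene coordinates come from GENCODE M21, which holds 99.0% of the identifiers.

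Cells and gene lists were chosen with earlier results of these data known. The genes named are the 12 highest and 12 lowest ratios between libraries, the 12 highest and 8 lowest between types, Acvrl1, the marker genes, and up to 4 called members of each list. Mitochondrial, ribosomal protein, haemoglobin, predicted, sex-linked, aerocyte rule and non-endothelial marker genes stayed out of the ranks. The same ranks without mixed cells, the limits for mixed cells, the sets by Xist and Y-linked transcripts (ranked there at 100 CPM), the groups by Lyve1 and the other genes described were chosen after their values were seen. 1 gene of the ranks between types is not reported here.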

Additional observations from a re-analysis of the deposited data

Results flagged for a closer look

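For 8 genes the KO cells with Y-linked transcripts and those with Xist alone lay on opposite sides of WT, each with intervals apart; the difference was not tested, and these genes were found by a search over all genes. F2r, a thrombin receptor, had a ratio to WT of 7.13 in the cells with Xist alone and 0.386 in those with Y-linked transcripts. St6galnac2 had ratios of 4.08 and 0.510, Sh3bp5 of 2.62 and 0.497, Fxyd5 of 2.38 and 0.547, and Adgrl4 of 2.32 and 0.470. On the opposite side, Myo10 had ratios of 0.181 and 1.52, Btbd3 of 0.184 and 1.73, and Chst2 of 0.289 and 1.58. The ratios in cells with Xist alone rest on 8 KO cells.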

How the results depend on the processing

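No paired analysis was possible because each group is 1 library. The aerocyte share of endothelial cells, 23.7% in WT and 12.7% in KO, became 29.1% and 18.4% when 1000 genes and no more than 5% mitochondrial UMIs were required. In WT it was 21.4% with 4 of 6 aerocyte genes required, 26.3% in cells thinned to 1500 UMIs, 20.1% without cells with 3 or more general capillary genes, and 27.6% without mixed cells among all endothelial cells. The genes higher and lower in KO, 117 and 109, became 57 and 45 after thinning, 196 and 231 at a mean of 10 CPM, 68 and 55 at 100 CPM, and 85 and 133 with median ratio scaling, where the median log2 ratio of well-counted genes had been 0.06 (0.34 among cells with Xist alone). Among cells with Xist alone 290 genes were higher. At 100 CPM, 137 genes were lower in aerocytes than in general capillary cells. Log2 ratios of KO over WT that turned in sign were these. With 4 of 6 genes required they were Apoe (-2.08), Gsn (-3.20), Mgp (-1.69) and Sparcl1 (-0.83). After thinning they were Apoe (-0.47), Gsn (-1.23), Id2 (0.38), Lfng (-0.17), Mgp (-1.71), Npr3 (-0.38) and Sparcl1 (-0.63). Cxcl12 became 0.040 without Scrublet doublets and 0.56 without cells with 3 or more general capillary genes, where Npr3 became -1.60. With Y-linked transcripts alone they were Apoe (-2.26), Bgn (-0.078), Cyr61 (-1.34), Gsn (-4.65), Mgp (-1.38) and Sparcl1 (-0.78). With Xist alone they were Bgn (-0.72), Gsn (-3.20), Klf4 (-0.46), Lfng (-1.91), Mgp (-2.61) and Syap1 (0.56). Without mixed cells they were Apoe (-1.32) and Gsn (-1.06). Apart from the fewer cells and UMIs in these settings, the cause was not tested. The 73 KO aerocytes limit what can be seen in low genes.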
